A study of Mus musculus with 2 samples.

Results

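The Wnt module examined here was made up of genes for Wnt ligands, their receptors and the proteins that promote or limit their signal in mouse lung. Members were chosen by gene symbol and comprised the Wnt, Fzd, Sfrp, Dkk and Rspo families, Axin1 and Axin2, Lgr4 to Lgr6, Lrp5 and Lrp6, Lef1, Wif1, Porcn and symbols that begin with Tcf7. The rule found 47 members among the 17943 genes of the deposited table, and it used no expression value. RNA was sequenced from lungs of wild type C57BL/6 mice, a common inbred laboratory strain, aged 6 to 8 weeks. The animals had received an intranasal adenovirus, a gene delivery vector, for 3 days. The vector was either empty (Adv-EV, 1 library) or carried interleukin 17B, a secreted cytokine of the IL-17 family (Adv-IL-17B, 1 library). No untreated animals were analysed here, so the adenovirus itself is shared by both groups. The design text speaks of triplicates, and no label says whether a library pools several mice.

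Wnt proteins are secreted lipid-modified ligands that bind Frizzled receptors at the cell surface. Together with the coreceptors LRP5 and LRP6 they stabilise beta-catenin, which then acts with TCF and LEF factors on target genes. Other Wnt proteins act through Frizzled without beta-catenin, on cell shape and planar polarity. R-spondins strengthen the signal through LGR receptors, whereas SFRP proteins, WIF1 and DKK proteins such as DKK1 limit it outside the cell. In lung, Wnt signals from the mesenchyme are known for their part in epithelial development and in the maintenance of alveolar type 2 cells.

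With 1 library per group no difference has a replicate check, and the values carry neither a test nor a p-value. Values are FPKM, fragments scaled by transcript length and library total, with the empty vector named first where a pair is given. Ratios are plain FPKM ratios, with 95% exact Clopper-Pearson intervals on estimated fragments that cover counting error only and are called limits below. Log2 ratios are of FPKM + 0.1, which understates the difference of low genes, and genes were counted as past 2-fold on that scale. The libraries held about 5630000 fragments each, as roughly estimated. Il17b had a value of 0 with the empty vector and of 93.2 FPKM with IL-17B. In whole tissue, fewer cells of a type and less RNA per cell cannot be told apart.

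More genes of the Wnt module were lower than higher in the Adv-IL-17B lung. The members lower beyond counting error were the receptor genes Fzd4, Fzd6, Fzd7, Fzd8, Lrp5 and Lrp6, the ligand genes Wnt3a, Wnt5a and Wnt10b, and Porcn, Dkk3 and Axin2, each by less than 2-fold. Rspo3 and Wnt7a were the measured members higher beyond counting error. Of the 47 members, 38 had a mean of at least 0.5 FPKM and are called measured, while 9 were under that filter. Of the measured members 25 (65.8%) had a log2 ratio below 0, against 50.8% of all measured genes, and without the filter 26 of 47 did. Their median log2 ratio was -0.22, against -0.01 over all 15056 measured genes. Only 1 member, Rspo3, was at least 2-fold higher and 0 were at least 2-fold lower, where 3.95% of measured genes were higher and 2.68% lower by the same rule, so the counts past 2-fold were near the background. At 1.5-fold on FPKM + 0.1, 1 member was higher and 5 were lower, against 9.44% and 8.2% of measured genes. The 5 were Fzd7, Fzd8, Wnt5a, Wnt10b and Wif1. The counting interval lay below equal levels for 12 of 38 members (31.6%) and above for 2 (5.26%). Among measured genes with a known length, 16.4% lay below and 17.4% above. Such intervals narrow with depth, so the counts were also taken among genes of at least 100 fragments over both libraries. There 11 of 26 members (42.3%) were lower and 1 was higher, against 19.2% and 20.4% of all such genes. Summed over all 47 members, the level was 278 FPKM with the empty vector and 237 with IL-17B.

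**Figure D1:**
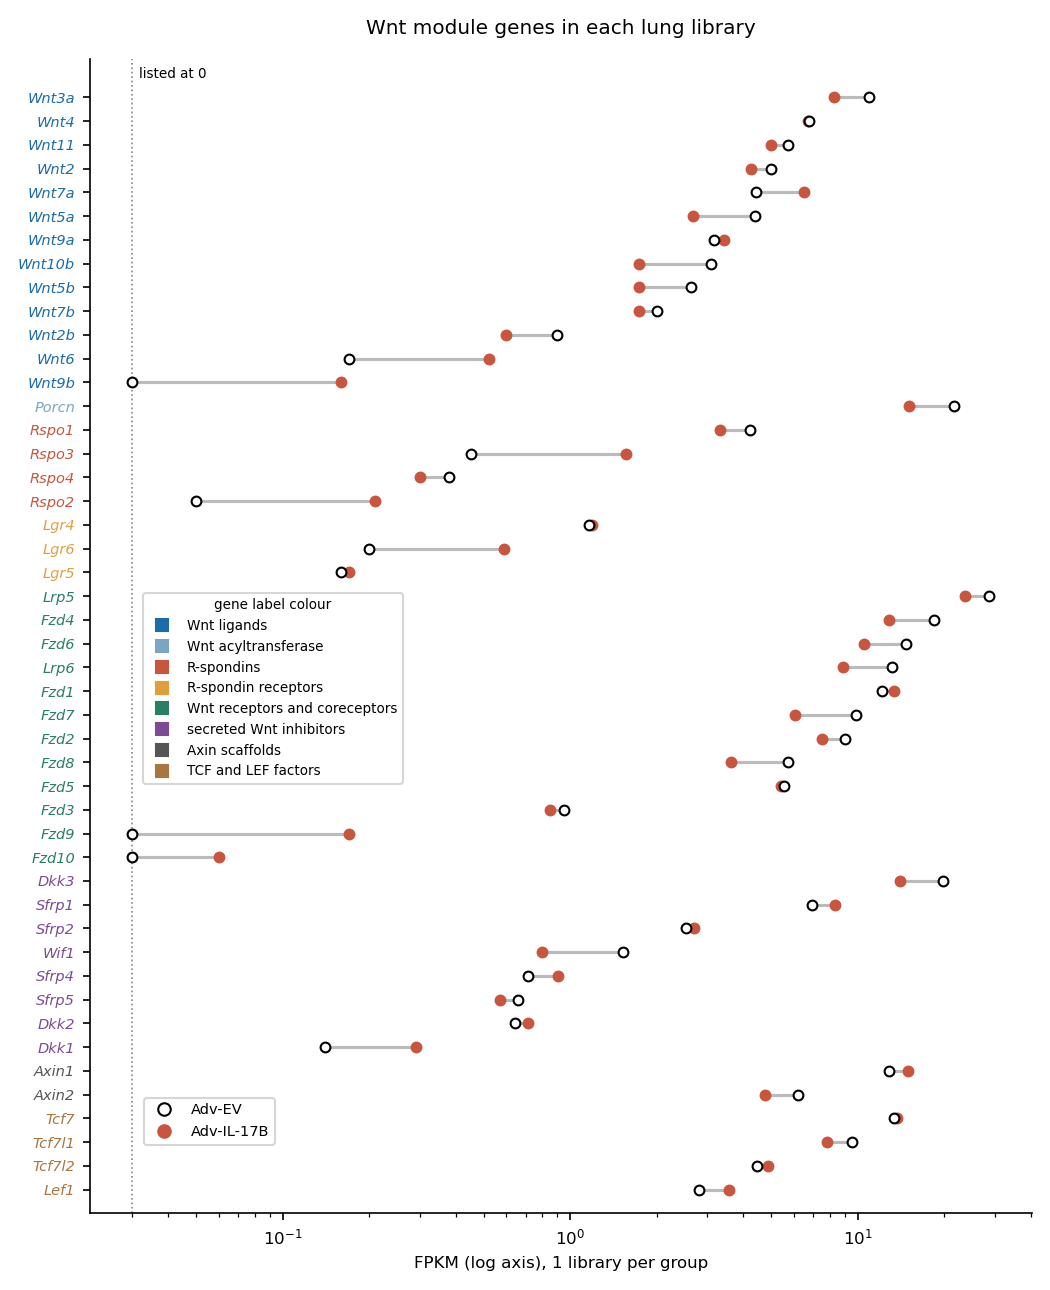
FPKM of the 47 Wnt module genes in the Adv-EV library (open circles) and the Adv-IL-17B library (filled circles), on a log axis, with genes listed at 0 drawn on the dotted line. Genes are grouped by role, and most receptor genes from Lrp5 to Fzd8 have the filled circle to the left of the open one, with Fzd1 as the exception.

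The receptors and coreceptors had the lowest median log2 ratio of the role groups with more than 1 measured member, -0.38 over 10 measured genes. Of these 9 had a ratio below 0 and 6 an interval below equal levels, against 50.8% and 16.4% of measured genes, or 19.2% for the interval among genes of at least 100 fragments. The 8 measured Frizzled genes, which encode the seven-pass receptors that bind Wnt, had a median of -0.37. The summed level of all 10 Frizzled genes was 76.4 FPKM with the empty vector against 60.4 with IL-17B.

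Fzd7, on chromosome 1 from 59482147 to 59486955 of GRCm38, stood at 9.89 FPKM with the empty vector against 6.05 with IL-17B (1.63-fold lower, with limits of 1.34 to 2.02). Fzd8 stood at 5.71 and 3.62 FPKM in the same order (1.58-fold lower, with limits of 1.25 to 2). These genes had the lowest ratios of the family. Fzd4, which encodes the Frizzled that also binds norrin in blood vessel development, stood at 18.44 and 12.89 FPKM (1.43-fold lower, with limits of 1.27 to 1.61). Fzd6, known for its part in planar polarity, stood at 14.7 and 10.52 FPKM (1.40-fold lower, with limits of 1.19 to 1.65). These 4 Frizzled genes were thus lower by 1.40-fold to 1.63-fold, beyond counting error. Fzd2 stood at 9.05 and 7.5 FPKM, a ratio of 0.829, with an interval of its ratio that included equal levels (0.663 to 1.03). Fzd5 was nearly level at 5.54 and 5.39 FPKM (ratio 0.973, limits 0.8 to 1.18), and Fzd3, at 0.95 and 0.85, was the least abundant measured Frizzled gene. Fzd1 was the measured member of the family with the opposite sign, at 12.11 FPKM with the empty vector against 13.38 with IL-17B (ratio 1.1, interval 0.939 to 1.3). In Adv-EV, Fzd4, Fzd6 and Fzd1 were the 3 most abundant, and in Adv-IL-17B the order was Fzd1, Fzd4 and Fzd6. Fzd9 and Fzd10 had a 0 for the empty vector and were at 0.17 and 0.06 FPKM with IL-17B, or some 2 fragments and 1, where a 0 allows up to 0.235 FPKM for Fzd9 and 0.165 for Fzd10.

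Both coreceptor genes were lower too. Lrp5 was the most abundant member of the module, at 28.64 FPKM with the empty vector against 23.63 with IL-17B (1.21-fold lower, with limits of 1.09 to 1.34). Lrp6 stood at 13.13 and 8.87 FPKM (1.48-fold lower, with limits of 1.31 to 1.67). The intervals of their ratios, 0.745 to 0.915 for Lrp5 and 0.599 to 0.761 for Lrp6, overlapped only between 0.745 and 0.761.

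Promoter sequence from RefSeq on GRCm38.p6 is given for Fzd7, the Frizzled gene with the lowest ratio, for Fzd4, the most abundant Frizzled gene, and for Axin2, the feedback gene described below. Each window runs from 250 bases before the annotated start to 50 after it, 5′ to 3′ in the sense of the gene, all on the plus strand. The windows are chr1:59481897-59482196 for Fzd7, chr7:89404116-89404415 for Fzd4 and chr11:108920099-108920398 for Axin2. The Axin2 window is that of a start inside the annotated gene, which begins at 108917828, so the upstream end of the gene was not searched. Capitals mark letters that match a TCF and LEF type motif, searched on both strands as CTTTG followed by 2 bases that are each A or T, with overlapping matches counted.
Fzd7: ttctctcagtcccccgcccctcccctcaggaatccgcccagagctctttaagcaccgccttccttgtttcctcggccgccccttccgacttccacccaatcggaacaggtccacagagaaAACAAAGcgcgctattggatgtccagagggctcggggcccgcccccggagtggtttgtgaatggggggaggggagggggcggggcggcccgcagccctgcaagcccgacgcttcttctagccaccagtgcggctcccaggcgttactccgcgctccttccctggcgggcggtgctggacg
Fzd4: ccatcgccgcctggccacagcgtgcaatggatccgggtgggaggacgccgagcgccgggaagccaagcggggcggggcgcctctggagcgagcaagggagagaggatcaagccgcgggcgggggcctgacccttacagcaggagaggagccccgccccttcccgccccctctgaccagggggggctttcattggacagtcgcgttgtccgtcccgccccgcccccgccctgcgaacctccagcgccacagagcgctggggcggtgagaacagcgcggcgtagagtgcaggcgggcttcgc
Axin2: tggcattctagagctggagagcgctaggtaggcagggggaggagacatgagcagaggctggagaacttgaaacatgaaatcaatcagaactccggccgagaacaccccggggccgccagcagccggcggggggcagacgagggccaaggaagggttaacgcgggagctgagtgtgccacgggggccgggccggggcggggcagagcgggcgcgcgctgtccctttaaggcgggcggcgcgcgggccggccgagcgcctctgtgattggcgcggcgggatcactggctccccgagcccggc
The Fzd7 window held 1 match, AACAAAG, that begins 130 bases before the start, and the windows of Fzd4 and Axin2 held 0. The windows are rich in CpG, with 24 CpG dinucleotides in that of Fzd7, 32 in that of Fzd4 and 31 in that of Axin2. The RefSeq table held 39 such windows for 31 of the 47 members, of which 6 windows (15.4%) had a match. Among all 32851 windows the share was 16.9%, close to that of the members. The members with a match were Fzd7, Lef1, Wnt5b, Wnt11, Dkk1 and Tcf7l2, and a match is a description of letters, not of binding.

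The deposited table had no row for Wnt1, Wnt3, Wnt8a, Wnt8b, Wnt10a or Wnt16. Of the 13 Wnt ligand genes that it held, 11 were measured, with a median log2 ratio of -0.24. Of these 9 had a ratio below 0, against 50.8% of measured genes. The intervals lay below equal levels for 3 and above for 1, against 16.4% and 17.4%. Wnt5a, a ligand known for beta-catenin-independent signalling, lies on chromosome 14 from 28504543 to 28527448 and stood at 4.4 FPKM with the empty vector against 2.67 with IL-17B (1.65-fold lower, with limits of 1.29 to 2.12). Wnt10b, known for restraining fat cell formation, stood at 3.08 and 1.73 FPKM, or some 38 and 21 fragments (1.78-fold lower, with limits of 1.04 to 3.25). Wnt3a, a classical activator of beta-catenin signalling, was the most abundant ligand gene at 10.9 and 8.25 FPKM (1.32-fold lower, with limits of 1.04 to 1.68). The lower bounds of the last 2 intervals lay close to equal levels.

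Wnt7a was the ligand gene that stood higher in Adv-IL-17B beyond counting error. It was at 4.44 FPKM with the empty vector against 6.51 with IL-17B (1.47-fold higher, with limits of 1.08 to 1.96), and it passed Wnt11 and Wnt2 in the order of ligand levels. Wnt4 was nearly level at 6.79 and 6.69 FPKM (ratio 0.985, limits 0.787 to 1.24). Wnt9a stood at 3.17 and 3.43 FPKM, and it lies beside Wnt3a on chromosome 11, where the Wnt3a gene spans 59248036 to 59290751 and Wnt9a 59306849 to 59333552. The neighbours thus had ratios of opposite sign, although the intervals of 0.596 to 0.958 for Wnt3a and 0.737 to 1.55 for Wnt9a overlapped.

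Wnt2, a mesenchymal ligand of lung development, stood at 5.01 and 4.24 FPKM, a ratio of 0.846, and the limits of its ratio were 0.573 to 1.23. Its relative Wnt2b stood at 0.9 and 0.6 FPKM, or some 17 and 11 fragments. Wnt7b, an epithelial ligand of lung development, stood at 2 and 1.73 FPKM. Wnt11, known for its part in tissue movements of the embryo, stood at 5.72 and 4.98 FPKM (ratio 0.871, limits 0.657 to 1.16). Wnt5b, the closest relative of Wnt5a, stood at 2.63 and 1.73 FPKM, or some 35 and 23 fragments. All 5 of these genes were lower in Adv-IL-17B by point estimate, and all 5 intervals included equal levels. Under the filter, Wnt6 stood at 0.17 and 0.52 FPKM, or some 2 and 6 fragments, and Wnt9b was listed at 0 with the empty vector and at 0.16 FPKM with IL-17B.

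Porcn, on the X chromosome, encodes the acyltransferase that adds the lipid needed for Wnt secretion. It was the second most abundant member of the module in Adv-EV, at 21.65 FPKM against 15.08 in Adv-IL-17B (1.44-fold lower, with limits of 1.21 to 1.71).

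**Figure D2:**
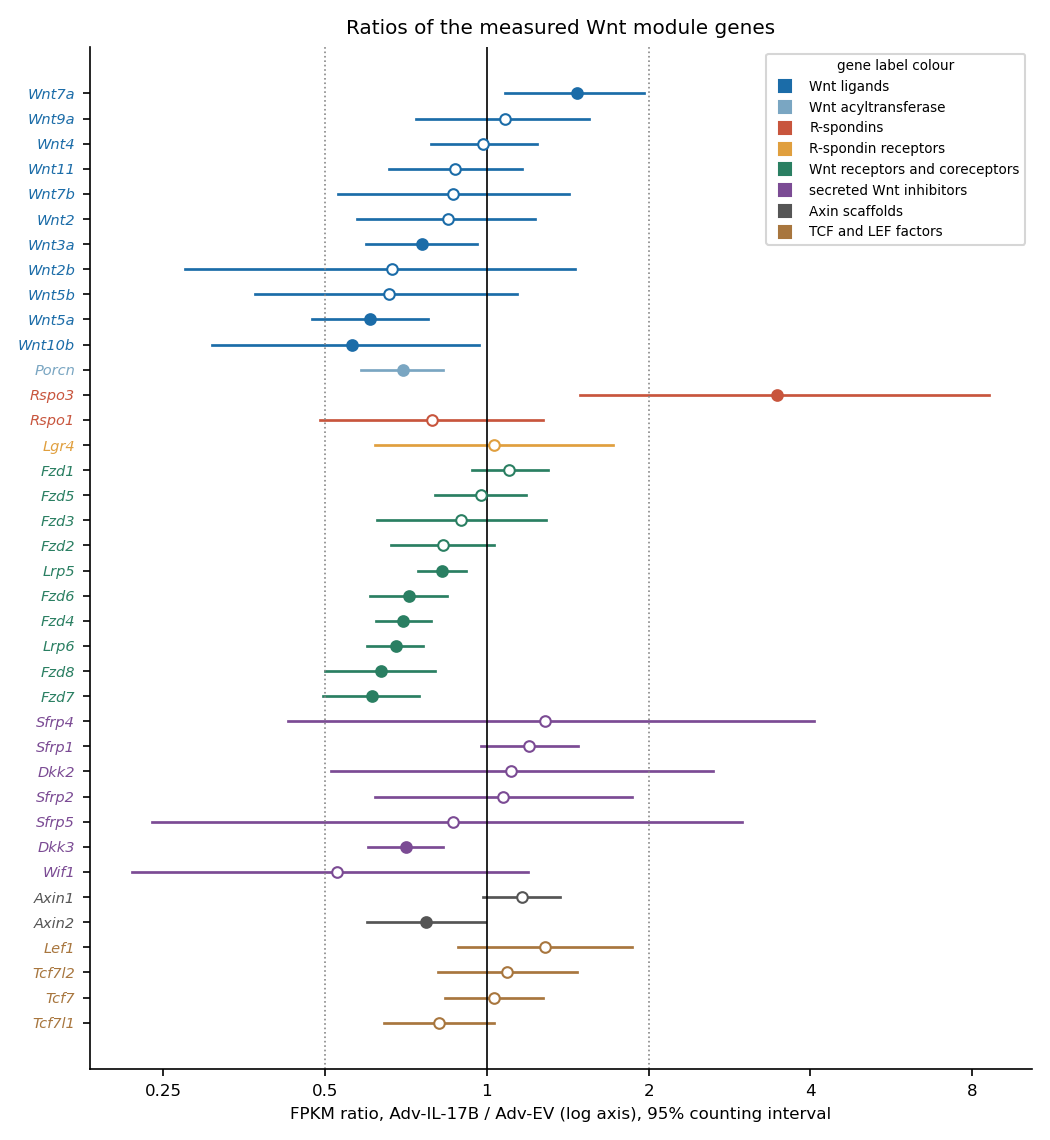
FPKM ratio of the 38 measured members, Adv-IL-17B over Adv-EV on a log axis, with bars for the 95% counting interval and filled points where that interval excludes equal levels. Dotted lines mark 2-fold, and only Rspo3 lies outside them, while 12 filled points lie to the left of equal levels and Rspo3 and Wnt7a to the right.

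Rspo3 had the highest log2 ratio of the measured members, 1.59. This R-spondin gene, on chromosome 10 from 29453106 to 29535867, stood at 0.45 FPKM with the empty vector against 1.56 with IL-17B (3.47-fold higher, with limits of 1.49 to 8.6). The value rested on about 8 and 27 fragments, and the gene passed the filter through the Adv-IL-17B library, since its Adv-EV level was under 0.5 FPKM. An unstranded count could not separate Rspo3 from Gm48159, a gene on the opposite strand whose exons share 404 bases (13.1%) with those of Rspo3 in GENCODE, and no source used here says whether reads were assigned by strand. Rspo1, the most abundant R-spondin gene, stood at 4.22 and 3.33 FPKM, and the limits of its ratio were 0.489 to 1.27. Rspo2 stood at 0.05 and 0.21 FPKM, or some 1 and 4 fragments, and Rspo4 at 0.38 and 0.3 on about 5 and 4. The R-spondin genes thus had no common direction.

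Among the R-spondin receptor genes only Lgr4 was measured, at 1.16 FPKM with the empty vector against 1.19 with IL-17B. Lgr6 was under the filter at 0.2 and 0.59 FPKM, about 7 and 22 fragments (2.95-fold higher, with limits of 1.3 to 8.71). Lgr5, a stem cell marker in the intestine, was at 0.16 and 0.17 FPKM on about 4 fragments in each library. Lgr6 and Rspo3 were the members with the largest ratios whose intervals excluded equal levels, and both were of low abundance.

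The 7 measured secreted inhibitors had a median log2 ratio of 0.09, with 4 above 0 and 3 below. Dkk3, a divergent member of the Dickkopf family, was by far the most abundant at 19.78 FPKM with the empty vector against 14 with IL-17B (1.41-fold lower, with limits of 1.21 to 1.67). Sfrp1, which encodes a Wnt-binding decoy, went the other way at 6.91 and 8.32 FPKM, a ratio of 1.2, with an interval of its ratio that just reached equal levels (0.975 to 1.48). Dkk3 was thus the gene of this group that differed beyond counting error. It was placed in the group by its family name, and whether it limits Wnt signals in these lungs was not tested.

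Wif1, which encodes a Wnt-binding inhibitor, stood at 1.52 FPKM with the empty vector against 0.8 with IL-17B on about 19 and 10 fragments (1.90-fold lower), and its interval of the ratio was wide, from 0.219 to 1.19. With a log2 ratio of -0.85 it was the measured member nearest to the 2-fold limit on the lower side. Sfrp2 stood at 2.52 and 2.69 FPKM, Sfrp4 at 0.71 and 0.91, and Sfrp5 at 0.66 and 0.57. Dkk2 stood at 0.64 and 0.71 FPKM, and Dkk1, the classical inhibitor that binds LRP6, was under the filter at 0.14 and 0.29. Sfrp2, Sfrp4, Sfrp5 and Dkk2 rested on 6 to 30 fragments per library, and differences of this size were not detectable at that depth.

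Inside the cell, Axin1 and Axin2 encode scaffolds of the complex that degrades beta-catenin, and Axin2 is itself a widely used target gene of the pathway. Axin2, on chromosome 11 from 108917828 to 108950783, stood at 6.2 FPKM with the empty vector against 4.77 with IL-17B (1.3-fold lower, with limits of 1.01 to 1.67). Axin1 stood at 12.85 and 14.94 FPKM (ratio 1.16, interval 0.985 to 1.37). The scaffold genes had ratios of opposite sign, each with an interval that reached to about equal levels.

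The 4 genes of TCF and LEF factors, the DNA-binding partners of beta-catenin, had a median log2 ratio of 0.08, and all 4 intervals included equal levels. Tcf7, which is also needed in T cells, stood at 13.35 and 13.71 FPKM (ratio 1.03, limits 0.834 to 1.27), and Lef1 at 2.8 and 3.57. Tcf7l1, often a repressor, stood at 9.57 and 7.79 FPKM (ratio 0.814, limits 0.643 to 1.03) and Tcf7l2 at 4.45 and 4.86. The 10 T cell markers, listed because T cells express Tcf7 and Lef1, had a median log2 ratio of 0.14, with Cd3d at 13.38 and 13.1 FPKM and Cd3e at 7.19 and 8.93. Of the 10, Il7r (6.36 and 8.36 FPKM), Cd8a (3.42 and 5.3 FPKM) and Cd5 (2.87 and 4.85 FPKM) were higher beyond counting error and 0 were lower. Over measured genes with a known length 17.4% were higher and 16.4% lower in this way. The part of T cells in the values of Tcf7 and Lef1 was not tested.

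Exons of 10 members share bases with a gene on the opposite strand in GENCODE. Among members whose interval excluded equal levels these were Rspo3, Wnt5a (4.58% of its exon bases), Axin2 (3.8%) and Fzd6 (3.15%). Reads of such partners cannot be told apart from those of the member where strand was not used.

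Feedback and target genes outside the module were lower more often than higher. Of 21 measured genes 15 had a ratio below 0, against 50.8% of all measured genes, and the median log2 ratio was -0.18. Past 2-fold there were 0, where 3.95% of measured genes were higher and 2.68% lower. The intervals lay below equal levels for 9 and above for 4, where the background was 16.4% and 17.4%. At 100 fragments or more the background was 19.2% and 20.4%. Apcdd1, an inhibitor induced by the pathway, stood at 5.75 FPKM with the empty vector against 3.19 with IL-17B (1.8-fold lower, with limits of the ratio of 0.348 to 0.855). Rnf43 and Znrf3, ubiquitin ligases that remove Frizzled from the surface, stood at 5.38 and 3.4 FPKM and at 2.79 and 2.05 FPKM. Nkd1, a feedback inhibitor of Dishevelled, stood at 44.13 and 30.43 FPKM (1.45-fold lower, with limits of the ratio of 0.625 to 0.761). Tnfrsf19 (6.69 and 4.4 FPKM), Bambi (3.6 and 2.43 FPKM) and Bmp4 (24.39 and 17.08 FPKM) were also lower beyond counting error, as were the most abundant genes Jun (115.63 and 101.85 FPKM) and Ccnd1 (65.24 and 59.31 FPKM). The 4 on the other side were Myc (4.04 and 6.19 FPKM), Cd44 (35.5 and 45.8 FPKM), Id2 (50.46 and 61.29 FPKM) and Birc5 (16.84 and 26.65 FPKM). Birc5 is also a marker of dividing cells, and the 7 markers of cycling cells, Birc5 among them, all had a ratio above 0, with a median of 0.52. The part of dividing cells in the value of Birc5 was not tested. Notum, an enzyme that removes the lipid from Wnt, was near level at 3.2 and 3.64 FPKM, and Sp5 stood at 3.6 and 2.82.

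The cytoplasmic part of the pathway had few differences of size. Among 25 measured genes of the Dishevelled and destruction complex list, the median log2 ratio was -0.14 and 1 was at least 2-fold lower, against 2.68% of measured genes. The intervals lay below equal levels for 10 and above for 1, against 16.4% and 17.4%. Among all measured genes of at least 100 fragments the shares were 19.2% and 20.4%. Nkd1, one of the 10, is also in the target list. Ctnnb1, the gene for beta-catenin, stood at 250.18 and 220.96 FPKM, a ratio of 0.883 with an interval of 0.848 to 0.92, and the casein kinase genes Csnk1a1 (70.39 and 67.98 FPKM) and Csnk1d (49.51 and 52.25 FPKM) followed in abundance. The gene past 2-fold on FPKM + 0.1 was Nkd2, a relative of Nkd1, at 3.88 and 1.77 FPKM (2.19-fold lower, with limits of the ratio of 0.308 to 0.676). Dact1 (3.71 and 2.14 FPKM) and Dact2 (1.7 and 0.81 FPKM) encode Dishevelled-binding modulators. Dact2 was 2.1-fold lower on plain FPKM, with limits of the ratio of 0.243 to 0.924, and lay just inside the limit with a log2 ratio of -0.98 on FPKM + 0.1. Nkd2, Dact2 and Dact1 had the lowest ratios of this list, and the Dact genes were named after their values were seen.

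Of 22 measured genes of the nuclear cofactor list, led by Aes (263.05 and 249.22 FPKM), Ctbp1 (87.04 and 84.57 FPKM) and Hbp1 (36.07 and 36.3 FPKM), the median log2 ratio was -0.06. This count and median include Tcf3 (21.95 and 23.68 FPKM) and Tcf4 (22.81 and 22.51 FPKM), which are not TCF and LEF factors despite their symbols. Of the 22, 5 had an interval below equal levels and 3 above, against 16.4% and 17.4% of measured genes with a known length. Among genes of at least 100 fragments the shares were 19.2% and 20.4%. At least 2-fold lower was 1 of the 22, against 2.68% of measured genes. Pygo1, which encodes a beta-catenin coactivator, was past 2-fold at 3 FPKM with the empty vector against 0.82 with IL-17B (3.66-fold lower, with limits of the ratio of 0.182 to 0.394). Its relative Pygo2 stood at 26.92 and 21.23 FPKM, and Ctnnbip1, an inhibitor of beta-catenin and TCF binding, was higher at 5.8 and 8.57. Pygo1 had the lowest ratio of all the Wnt pathway genes listed here.

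The 12 measured genes of Wnt secretion and extracellular cofactors had a median of -0.04 with 0 past 2-fold, where 3.95% of measured genes were higher and 2.68% lower. Of the 12, 3 had an interval below equal levels and 1 above, against 16.4% and 17.4% of measured genes with a known length. Notum is also in the target list. Tmed2 (129.98 and 132.55 FPKM) and Snx3 (103.78 and 105.21 FPKM), of general membrane traffic, were level. Wls, the Wnt carrier that acts after Porcn, stood at 54.87 and 45.15 FPKM (1.22-fold lower, with limits of the ratio of 0.753 to 0.9). Porcn and Wls were thus both lower, by 1.44-fold and 1.22-fold.

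Of 16 measured genes of noncanonical receptors and planar polarity the median was -0.10, with 3 intervals below equal levels and 1 above. Over measured genes with a known length 16.4% lay below and 17.4% above. Ryk (34.2 and 29.37 FPKM), Ptk7 (25.37 and 22.71 FPKM) and Prickle3 (17.41 and 17.29 FPKM) were the most abundant, and Prickle4 was past 2-fold at 0.78 and 1.82 FPKM, although its limits of 0.705 to 8.08 included equal levels. Ror2, a receptor for Wnt5a, stood at 1.25 and 2.27 FPKM (1.82-fold higher, with limits of 1.13 to 3), opposite in sign to its ligand. The 11 measured other antagonists and regulators of receptor turnover had a median of -0.28, with 6 intervals below equal levels and 2 above. The background was again 16.4% and 17.4%, or 19.2% and 20.4% among genes of at least 100 fragments. They share Apcdd1, Rnf43 and Znrf3 with the target list. Their most abundant genes were Igfbp4 (117.8 and 134.9 FPKM), Lrp4 (21.22 and 11.92 FPKM) and Kremen1 (13.64 and 11.2 FPKM). Draxin, a secreted Wnt antagonist of axon guidance, was past 2-fold at 0.48 and 1.26 FPKM (2.62-fold higher, with limits of 1.4 to 5.29). It rested on about 14 and 37 fragments and passed the filter through the Adv-IL-17B library, since its Adv-EV level was under 0.5 FPKM. In each of these lists 1 gene was at least 2-fold higher, where 3.95% of measured genes were.

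**Figure D3:**
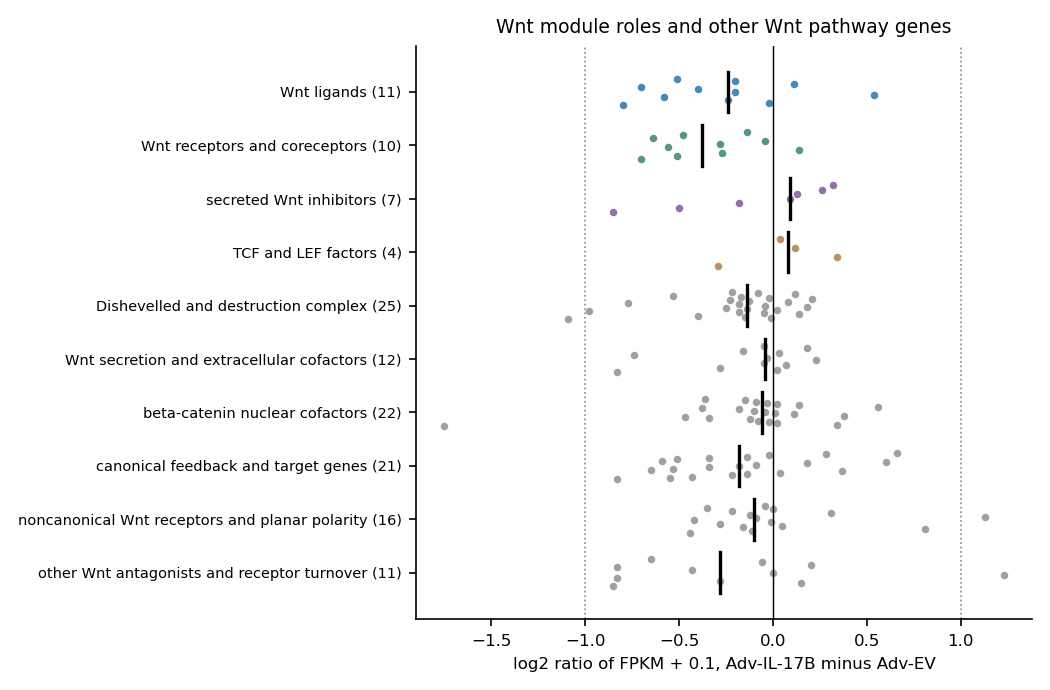
Log2 ratio of FPKM + 0.1, Adv-IL-17B minus Adv-EV, for measured genes of the larger role groups of the module (coloured) and of other Wnt pathway lists (grey), with each point a gene, black bars for the medians and the number of genes in brackets. Dotted lines mark 2-fold, and the receptors and coreceptors have the lowest median of the lists shown, at -0.38. The nuclear cofactor points include Tcf3 and Tcf4, which are not TCF and LEF factors.

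Marker genes of several resident cell types were lower in the same library. All 8 markers of alveolar fibroblasts, cells known to make Wnt ligands such as Wnt2 and Wnt5a, had a ratio below 0, with a median log2 ratio of -0.89 and a summed level of 1277 FPKM with the empty vector against 633 with IL-17B. Their transcription factor gene Tcf21 stood at 82.14 and 44.18 FPKM. The 7 pericyte markers had a median of -0.51, the 8 alveolar type 1 markers -0.38, the 8 capillary and general endothelial markers -0.35 and the 8 alveolar type 2 markers -0.25. The Wnt receptors and coreceptors and the ligands had medians of -0.38 and -0.24. The 8 adventitial fibroblast markers had a median of -0.04 and were split. Dpt (93.6 and 59.23 FPKM), Serpinf1 (14.51 and 9.28 FPKM) and Pi16 (12.07 and 9.97 FPKM) were lower beyond counting error. Ly6a (814.92 and 1039.58 FPKM) and Cd34 (93.86 and 114.5 FPKM) were higher. Over measured genes with a known length 16.4% were lower and 17.4% higher in this way.

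The 9 neutrophil markers and 9 monocyte and interstitial macrophage markers all had ratios above 0, with medians of 0.96 and 0.64 and summed levels of 354 and 636 FPKM and of 948 and 1597 FPKM. Alveolar macrophage markers had a median of -0.72, and red blood cell markers, at -1.63, were all 6 past 2-fold lower. The part of these markers in the values of the Wnt genes was not tested. Among the other lists the median log2 ratio was 0.20 for mesothelium, 0.12 for airway secretory cells, 0.05 for B cells, -0.19 for venous and arterial endothelium and -0.21 for ciliated cells. The airway secretory markers were split, with 3 intervals above and 3 below equal levels, and their summed level was 39806 and 28360 FPKM. Of the 6 measured mesothelial markers 4 had a ratio above 0. Upk1b (13.86 and 6.61 FPKM) and Upk3b (12.36 and 7.49 FPKM) were lower beyond counting error, Upk1b by at least 2-fold. Msln (20.03 and 25.85 FPKM) and Krt19 (199.33 and 214.22 FPKM) were higher beyond counting error. Over measured genes with a known length 16.4% were lower and 17.4% higher in this way. The median was -0.33 for smooth muscle and myofibroblasts and -0.43 for lymphatic endothelium, and of the basal cell markers 2 were measured.

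Tissue that may be carried along in dissection was looked for by its markers. Whether their RNA came from such tissue or from within the lung was not tested. Of 7 cartilage markers only Chad was measured, at 19.99 and 16.12 FPKM, while the defining Col2a1 was at 0.04 and 0.07 FPKM and Acan at 0 and 0.02. Of 8 thymocyte markers 3 were measured, and the defining Rag1 was at 0 and 0.03 FPKM. Of 8 adipocyte markers 4 were measured, with a summed level of 13.9 and 6.37 FPKM, a median log2 ratio of -1.76 and the defining Adipoq at 0.59 and 0.29 FPKM. Of these 2 were at least 2-fold lower, with Cidec, of fat droplets, at 5.19 and 0.53 FPKM. All 7 cardiac and all 7 skeletal muscle markers were measured, with summed levels of 110 and 86.6 FPKM and of 317 and 262 FPKM and medians of -0.30 and -0.25. The lung markers Sftpc and Scgb1a1 were among the highest genes of both libraries.

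**Figure D4:**
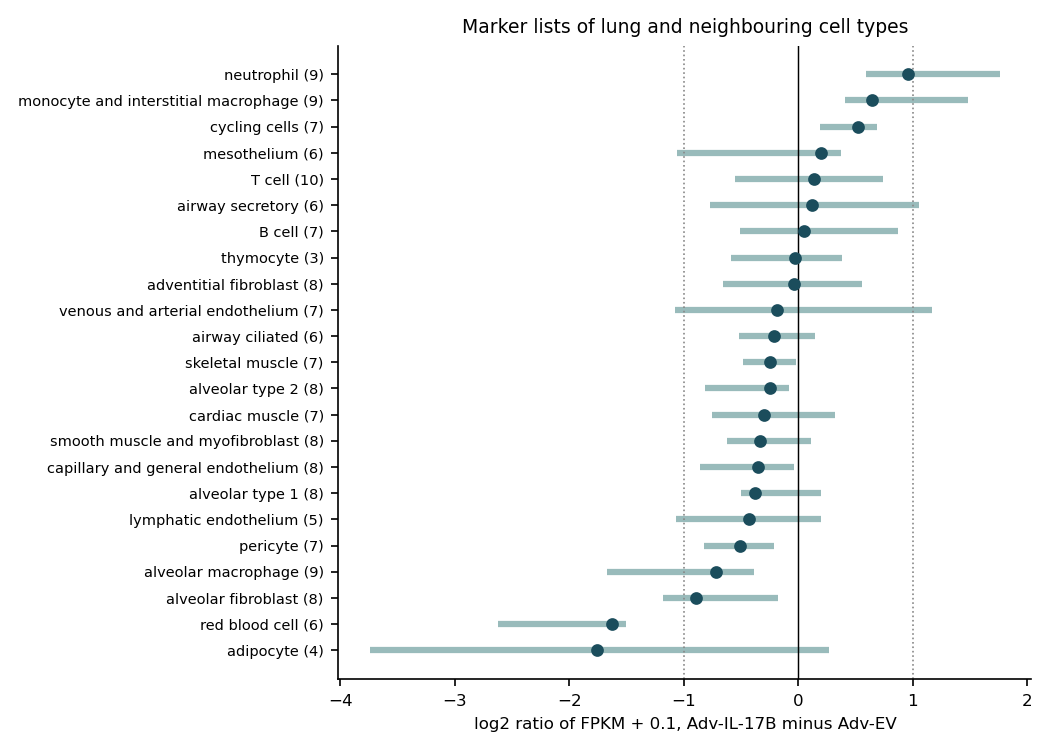
Log2 ratio of FPKM + 0.1, Adv-IL-17B minus Adv-EV, for marker lists of cell types with at least 3 measured genes, with the median as a point, the lowest and highest gene as a bar and the number of genes in brackets. Alveolar fibroblast markers have a median of -0.89 and neutrophil markers of 0.96.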

How the data were processed

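RNA sequencing of lung was analysed from 2 libraries, 1 per group, grouped by their titles. Per the file headers, the authors deposited FPKM values in 1 column per group, with 2 decimals. The aligners Bowtie2 and HISAT and the mouse build mm10 are named in the submitters' processing notes. How FPKM was computed, with which annotation and filters and whether by strand, is not given in those notes or the file. Since FPKM is relative to the library total, very abundant genes can shift the rest.

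Ratios used log2(FPKM + 0.1), a minimum mean of 0.5 FPKM and a size rule of 2-fold. Members and lists were chosen with earlier results of these data known. All members past 2-fold, with an interval that excluded equal levels or with at least 5 FPKM were given in full. Of the other pathway lists, genes past 2-fold and the 3 most abundant were named by rule, and others after their values were seen. List members that also belong to the module were left out of those lists.

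Fragments were estimated from the steps of low FPKM values, with transcript lengths from GENCODE M21 for 98.3% of genes (the longest where several matched). Steps between 0.02 and 1 FPKM per fragment at 1 kb were searched, with 0 to 100 bases taken off the length. The best steps took off 30 bases and made 1 fragment worth 0.178 FPKM in both libraries. With them 81.3% (Adv-EV) and 81% (Adv-IL-17B) of these low values came out whole within 0.2. Fragments summed over genes, 6050000 and 6060000, exceeded the estimated totals, so the depth is rough. No count test was run. A value of 0 allows up to 3 fragments, or 0.533 FPKM at 1 kb. Intervals and floors cover counting error only. The search and intervals were tested on simulated data. Python 3.11.15, numpy 2.4.6, pandas 2.3.3, scipy 1.17.1 and matplotlib 3.10.9 were used.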

Additional observations from a re-analysis of the deposited data

How the results depend on the processing

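With 1 library per group, leaving out a replicate could not be tried. No paired analysis was possible because each group has 1 library and no test was run. The count of members at least 2-fold higher, 1 as reported, was 0 with a pseudocount of 1 and with a mean of at least 2 FPKM, and 6 of 47 with no filter on low values, where 6.39% of all genes were higher. The count at least 2-fold lower, 0 as reported, stayed 0 under the alternatives that kept the 2-fold rule. On FPKM + 0.1, 5 members were at least 1.5-fold lower, where 8.2% of all measured genes were. The median log2 ratio of the receptors and coreceptors, -0.38 as reported, was -0.27 with no filter and -0.48 with a mean of at least 2 FPKM. The other medians of the module and of its ligand and inhibitor groups stayed within 0.1 under the alternatives tried. Rescaling without the 10 most abundant genes put the median of all genes at -0.08 and left 27 of 38 members below 0. All 167 alternative values of the 24 members given in full stayed within their counting intervals. Wif1, the R-spondin genes and the Lgr genes, among others, at under 50 fragments a library, are limited by depth.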
